A study of Mus musculus with 6 samples.

Results

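Notch signalling passes between touching cells, and 10 of its genes were examined in the lacrimal gland of mice without and with ectodysplasin A: the receptors Notch1, Notch2, Notch3 and Notch4, the ligands Jag1, Jag2 and Dll1, the nuclear effector Rbpj and the target genes Hes1 and Hey1. They were taken by name from a table of raw read counts that lists 50686 genes, all 10 were found in it, and all 10 had enough counts to be tested. RNA came from whole lacrimal glands, the exocrine glands that make the watery part of tears, of mice aged 13 weeks. The 6 libraries were 3 from Eda-/- mice, titled Tabby in the labels, and 3 from wild-type mice, titled Blacky, all with the strain label C57BL/6. Eda encodes ectodysplasin A, a TNF-family ligand that acts through Edar and NF-kB in the growth of hair, teeth and glands. The labels do not say whether the mutants and the wild-type mice were littermates, and no cell type was sorted. A lower count in such bulk tissue can mean fewer cells of a type or less RNA per cell, and these cannot be told apart here.

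In the Notch pathway a ligand on a neighbouring cell binds the receptor, which ADAM proteases and then the gamma-secretase complex cut, releasing an intracellular part. That part enters the nucleus, joins the DNA-binding protein RBPJ and a Mastermind coactivator, and turns on target genes such as Hes1 and Hey1, which encode transcriptional repressors. Without it RBPJ can recruit corepressors that contain histone deacetylases. In epithelia Notch is known for choices between cell fates and for the upkeep of progenitor cells, and in vessels for the behaviour of endothelial and mural cells.

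Library totals ran from 11894395 to 14480331 counts in Eda-/- glands and from 13670343 to 15700899 in wild-type glands. Eda, the gene named in the genotype label, had 2, 0 and 0 counts in the Eda-/- libraries, against 41, 48 and 42 in the wild-type libraries. This was 0.0212 of the wild-type level after scaling (exact binomial 95% interval 0.00255 to 0.0783, counting error alone). Acinar markers were abundant in both groups: the water channel gene Aqp5 averaged 116 CPM (counts per 1e+06, scaled by the trimmed mean of M-values, TMM) in Eda-/- glands and 98.6 in wild-type glands. The summed CPM of 5 salivary gland markers, of which Smr3a alone had 0 counts in every library, was 0.611 to 1.48 in Eda-/- glands and 0.899 to 0.9998 in wild-type glands. That of 5 skeletal muscle markers was 0.375 to 0.873 in Eda-/- glands and 0.647 to 2.12 in wild-type glands. The 20 most abundant genes held 64.2% to 65.2% of the counts in Eda-/- libraries and 58.0% to 59.9% in wild-type libraries. Of 13178 genes tested with edgeR's quasi-likelihood test, 819 were higher and 909 lower in Eda-/- glands at an adjusted p under 0.05. Scaled by library totals, the split was 246 higher and 4365 lower, since the median of all genes then lay at -0.28 (log2).

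Rbpj fell in Eda-/- glands and passed the test under each of the 18 alternative settings tried. RBPJ binds DNA at a core of the letters TGGGAA, and this core was looked for on both strands (TGGGAA and TTCCCA) in the 250 bases before each RefSeq start (build GRCm38.p6). Windows were at hand for 8 of the 10 members, and Hes1 and Hey1 were not among them. Of these 8 genes Rbpj alone held the core, and 21.6% of all 32851 windows in the table held it on one strand or the other. The sequences of the 2 members that passed the test are shown, on the plus strand and up to the first base that GENCODE M21 annotates as exon, with the core in capitals. The Rbpj stretch lies at chr5:53590096-53590213 and the Notch2 stretch at chr3:98013288-98013526. In the Rbpj stretch the core starts at base 102, and the Notch2 stretch has none; a match in letters does not show a bound site.
Rbpj: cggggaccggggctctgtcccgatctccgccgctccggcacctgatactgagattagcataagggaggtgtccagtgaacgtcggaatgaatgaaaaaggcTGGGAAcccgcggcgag
Notch2: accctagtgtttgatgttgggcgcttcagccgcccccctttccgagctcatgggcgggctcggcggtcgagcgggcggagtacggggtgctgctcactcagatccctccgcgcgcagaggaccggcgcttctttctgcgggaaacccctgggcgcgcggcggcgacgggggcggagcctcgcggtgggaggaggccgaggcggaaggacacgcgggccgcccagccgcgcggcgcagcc

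Levels of different genes were set side by side only as CPM per kilobase of exon. Notch2 was the most abundant of the 10 genes on this scale, at 5.20 ± 0.25 CPM per kb in Eda-/- glands and 6.14 ± 0.31 in wild-type glands (SD, n = 3 each). Hes1 came second with 3.34 ± 0.67 in Eda-/- glands and 3.89 ± 0.59 in wild-type glands, followed by Jag1 (1.49 ± 0.06 and 1.62 ± 0.05) and Notch1 (1.48 ± 0.23 and 1.46 ± 0.07). Rbpj, Jag2 and Notch3 lay between 0.608 and 0.682 CPM per kb in Eda-/- glands and between 0.714 and 1.01 in wild-type glands. Hey1, Notch4 and Dll1 were the least abundant, at 0.255, 0.252 and 0.160 in Eda-/- glands and 0.296, 0.212 and 0.264 in wild-type glands. Neighbours in this order whose libraries overlapped in Eda-/- glands were Jag1 with Notch1, Rbpj with Jag2, Jag2 with Notch3, Hey1 with Notch4 and Notch4 with Dll1. In wild-type glands the overlapping neighbours were Rbpj with Jag2 and Hey1 with Dll1. The exon length joins all annotated transcripts of a gene, so a gene with many isoforms, such as Rbpj, is placed too low.

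**Figure D1:**
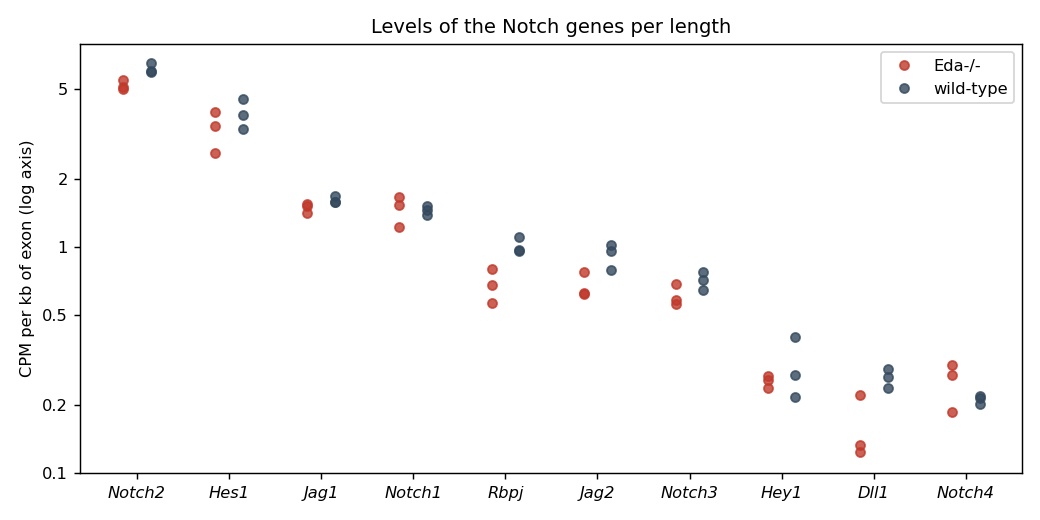
Level of each Notch gene in CPM per kb of exon on a log axis, ordered by the wild-type mean, with 3 Eda-/- libraries (red, left) and 3 wild-type libraries (grey, right) per gene. Notch2 and Hes1 stand above the rest in both genotypes, and Hey1, Dll1 and Notch4 lie lowest.

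Within the receptors, Notch2 made up most of the summed CPM per kb: 67.0%, 69.5% and 70.7% in the Eda-/- libraries, against 73.2%, 71.6% and 71.3% in the wild-type libraries. Notch1 held 19.5% ± 2.29 in Eda-/- glands and 17.1% ± 0.89 in wild-type glands, and Notch3 8.06% ± 0.53 and 8.38% ± 0.87. Within the ligands Jag1 held 64.2% ± 2.29 in Eda-/- glands and 57.7% ± 3.24 in wild-type glands, Jag2 28.9% ± 2.49 and 32.9% ± 3.66, and Dll1 6.92% ± 2.52 and 9.42% ± 0.97. The Notch2 and Jag1 shares did not overlap between genotypes, with a two-sided exact permutation p of 0.1, the smallest that 3 against 3 libraries allow. Adjusted over the 9 shares computed within receptors, ligands and targets, that p was 0.45.

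Of the 10 genes 2, Notch2 and Rbpj, passed the edgeR test over all genes, both lower in Eda-/- glands, where 6.9% of all tested genes passed lower and 6.21% higher. None rose in edgeR, DESeq2 or limma-voom, nor was any higher in edgeR before adjustment at 0.05. Of the 10 log2 fold changes 8 lay below 0, against 49.5% of all tested genes, and their median was -0.23, against 0.00 for all tested genes. In 5 of the 10 genes (Notch2, Jag1, Jag2, Dll1 and Rbpj) every Eda-/- library lay below every wild-type library, which was so for 16.2% of all tested genes. The mean log2 CPM over the 10 genes, relative to the wild-type mean, was -0.24, -0.29 and -0.19 in the Eda-/- libraries and 0.003, -0.021 and 0.018 in the wild-type libraries. With library totals instead of TMM all 10 values lay below 0, and 7 genes passed lower, with the median of all genes shifted by -0.28 as given above.

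**Figure D2:**
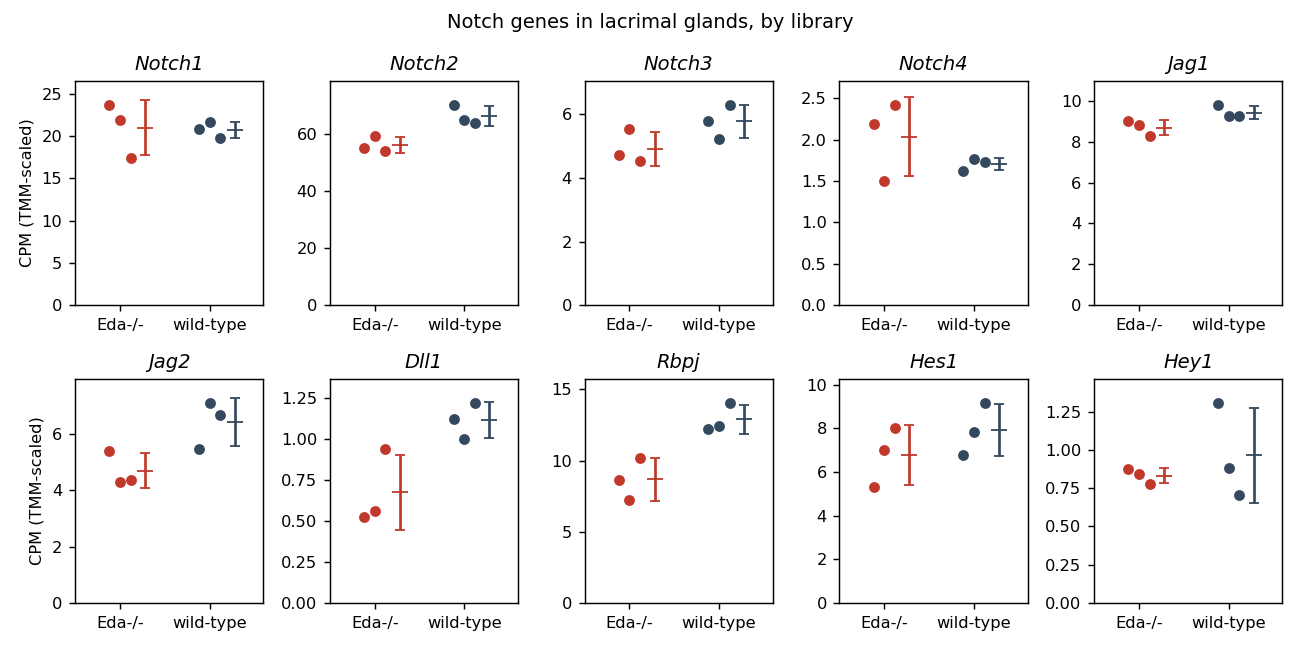
CPM of each Notch gene by library, TMM-scaled, with Eda-/- glands left (red) and wild-type glands right (grey); points are libraries and bars the mean with SD (n = 3). Notch2, Jag1, Jag2, Dll1 and Rbpj do not overlap between genotypes, while Notch1, Notch3, Notch4, Hes1 and Hey1 do.

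The receptor Notch1 (ENSMUSG00000026923.15, GRCm38 chromosome 2, 26457903 to 26516663, minus strand) had 23.7, 21.9 and 17.4 CPM in Eda-/- libraries and 20.8, 21.6 and 19.8 CPM in wild-type libraries. The groups overlapped, and the mutant libraries spread more widely than the wild-type ones. The log2 fold change was 0.013 (95% interval -0.22 to 0.24, adjusted p = 0.957), and its sign turned under library totals and upper quartile scaling. On the opposite strand 0610009E02Rik shares 7.50% of Notch1's exon bases and Gm13568 2.91%; the strand setting of the counting is not given, so such reads cannot be told apart.

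Notch2, the most abundant receptor (ENSMUSG00000027878.11, chromosome 3, 98013527 to 98150361, plus strand), had 55.1, 59.2 and 54.0 CPM in Eda-/- libraries, against 70.1, 64.8 and 63.9 CPM in wild-type libraries. All mutant libraries lay below all wild-type libraries, but the nearest values were 59.2 and 63.9. It fell by 0.24 on the log2 scale (SE 0.08, 95% interval -0.40 to -0.08, fold 0.847, edgeR adjusted p = 0.0474). This call lay at the threshold: it was lost in 12 of 18 alternatives, including DESeq2 (adjusted p = 0.105), limma-voom (0.0526) and the removal of any 1 library (0.0561 to 0.2), while the log2 value stayed between -0.52 and -0.19. The transcript Gm42820, annotated on the same strand over 5.02% of Notch2's exon bases, had 4, 7 and 9 counts in Eda-/- libraries and 16, 15 and 21 in wild-type libraries.

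Notch3, a receptor best known from mural cells of vessels (chromosome 17, 32120820 to 32166852, minus strand), had 4.72, 5.53 and 4.52 CPM in Eda-/- libraries and 5.80, 5.23 and 6.29 CPM in wild-type libraries. The groups overlapped through the highest mutant and lowest wild-type library, and the log2 fold change of -0.23 did not pass (95% interval -0.57 to 0.10, adjusted p = 0.375). Its antisense transcript Gm17276, which covers 6.03% of Notch3's exon bases, had 8, 6 and 5 counts in Eda-/- libraries and 22, 25 and 21 in wild-type libraries; with these counts added the log2 value was -0.39 (adjusted p = 0.0899), moved by over 1.5 times and still not past the test. Notch4, a receptor best known from endothelium, had 2.18, 1.499 and 2.42 CPM in Eda-/- libraries and 1.62, 1.76 and 1.73 CPM in wild-type libraries. It rested on 16 to 31 counts per library, and its interval of -0.29 to 0.81 (log2 fold change 0.26, adjusted p = 0.563; -0.017 with library totals) covers both directions. The value was 0.12 without mutant 3 and 0.43 without mutant 2. Notch4 (chromosome 17, 34564268 to 34588503) lies in a stretch with many other differences. Of 43 tested neighbours within 500 kb, 6 were higher and 9 lower, where 6.21% of all tested genes passed higher and 6.9% lower. A log2 fold change beyond 1 in either direction was found in 17 of them, and the share of all genes beyond 1 was not computed. Whether the mice differed in sequence there was not tested, nor was the part of cell types in these differences.

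Among the ligands none passed. All 3 had lower means in Eda-/- glands, and none of their libraries overlapped between genotypes. Of all tested genes 16.2% were without overlap in the lower direction and 15.9% in the higher direction. Jag1, a Jagged ligand (chromosome 2, 137081456 to 137116644, minus strand), had 8.99, 8.81 and 8.27 CPM in Eda-/- libraries, against 9.79, 9.23 and 9.24 CPM in wild-type libraries. The values were tight within each genotype and close between them, with a log2 fold change of -0.12 (95% interval -0.37 to 0.13, adjusted p = 0.567; -0.077 without mutant 3). Jag2, its paralogue (chromosome 12, 112907819 to 112929776, minus strand), had 5.41, 4.31 and 4.37 CPM in Eda-/- libraries and 5.49, 7.12 and 6.68 CPM in wild-type libraries. Its highest mutant library lay just under its lowest wild-type library, and the log2 fold change was -0.45 (95% interval -0.80 to -0.10, edgeR adjusted p = 0.086). Dll1, a Delta-like ligand (chromosome 17, 15367354 to 15376872, minus strand), had 6, 6 and 12 counts in Eda-/- libraries and 18, 17 and 19 in wild-type libraries. Its log2 fold change of -0.69 was the lowest of the 10 genes and had a wide error (SE 0.35, 95% interval -1.44 to 0.05, adjusted p = 0.217). The lncRNA A930024N18Rik overlaps 20.6% of Dll1's exon bases on the opposite strand, with at most 2 counts in any library, and with its counts added Dll1 stood at -0.45, moved by over 1.5 times.

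**Figure D3:**
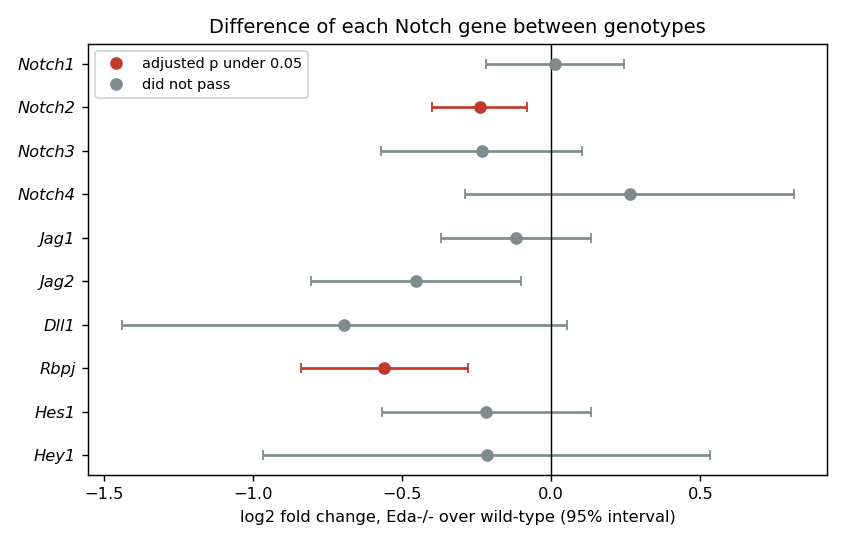
Log2 fold change of each Notch gene, Eda-/- over wild-type, with its 95% interval from edgeR, not adjusted for the number of genes; red marks an adjusted p under 0.05. The intervals of Notch2, Jag2 and Rbpj lie below 0, and those of the other 7 genes include 0.

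Rbpj, the DNA-binding partner of every Notch receptor (ENSMUSG00000039191.12, chromosome 5, 53466152 to 53657362, plus strand), had 99, 77 and 131 counts in Eda-/- libraries and 196, 211 and 219 in wild-type libraries. Scaled, these were 8.64, 7.22 and 10.2 CPM in Eda-/- glands, against 12.2, 12.4 and 14.1 CPM in wild-type glands. Every mutant library lay below every wild-type library. Rbpj fell to 8.69 ± 1.5 CPM in Eda-/- glands, against 12.9 ± 1.01 CPM in wild-type glands (SD, n = 3 each; log2 fold change -0.56, SE 0.13, 95% interval -0.84 to -0.28, fold 0.678, edgeR adjusted p = 0.011). It passed in DESeq2 (adjusted p = 0.0217), in limma-voom (0.0129) and without each library in turn (log2 -0.69 to -0.44, adjusted p up to 0.048). The 4 tested genes within 500 kb of Rbpj had a median log2 fold change of 0.11.

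A processed pseudogene of Rbpj ran the other way. Rbpj-ps3 on chromosome 6, which holds 10.3% of Rbpj's 31-base words, had 5, 13 and 9 counts in Eda-/- libraries and 1, 0 and 2 in wild-type libraries, too few to be tested. Reads that match both copies can be assigned to the wrong one. With the pseudogene's counts added, a check chosen after the data were seen, Rbpj stood at -0.44 (log2, edgeR adjusted p = 0.0271).

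**Figure D4:**
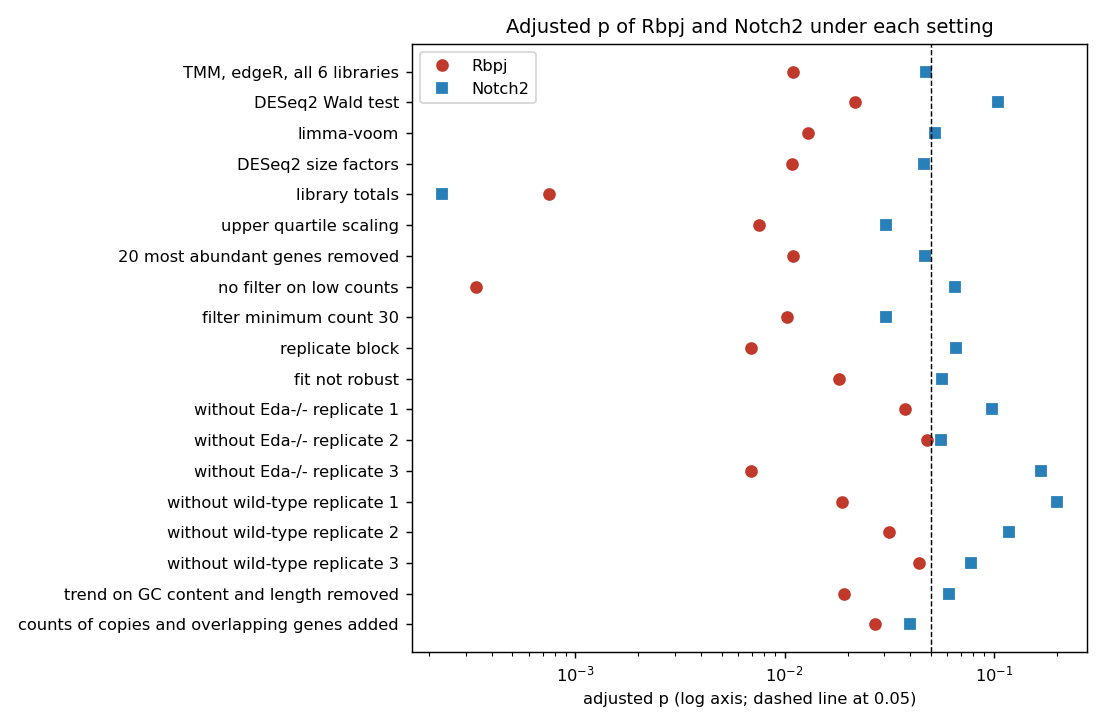
Adjusted p of Rbpj (red circles) and Notch2 (blue squares) on a log axis under the main setting at the top and 18 alternatives, with the threshold of 0.05 dashed. Rbpj lies left of the line in every row, and Notch2 lies right of it in 12.

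The target genes did not pass. Hes1, a repressor that is a direct Notch target in many tissues (ENSMUSG00000022528.7, chromosome 16, 30064384 to 30067796, plus strand), had 5.33, 7.03 and 8.03 CPM in Eda-/- libraries and 6.80, 7.82 and 9.18 CPM in wild-type libraries. The spread within each genotype was larger than the difference between them, and the log2 fold change was -0.22 (95% interval -0.57 to 0.13, adjusted p = 0.434). The value rested on single libraries: it was -0.065 without mutant 1, -0.092 without wild-type 3 and -0.36 without mutant 3. Hey1, a related repressor prominent in vessels (chromosome 3, 8663359 to 8667256, minus strand), had 10, 9 and 10 counts in Eda-/- libraries and 21, 15 and 11 in wild-type libraries. Its groups overlapped once scaled, and its interval ran from -0.97 to 0.53 (log2 fold change -0.22, adjusted p = 0.748). Without wild-type 1 the sign of Hey1 turned, at 0.07. At the depth of Hes1 a fall as large as that of Rbpj lies just inside the lower end of the interval, so the data do not show that Hes1 was unaffected.

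Of 55 further pathway genes, listed by role, 45 were tested and 2 passed, both lower: Maml2 and Hdac1. Of all tested genes 6.9% passed lower and 13.1% passed in either direction, so calls were no more frequent in this list than among all genes. None rose over all tested genes in edgeR, DESeq2 or limma-voom. At an unadjusted edgeR p under 0.05, 3 were higher and 7 lower. The share of all genes at that threshold was not computed, so these 2 counts cannot be read as a result about the list. Their median log2 fold change was 0.00, as for all tested genes, and 22 of the 45 lay below 0. Maml2, a Mastermind coactivator of the RBPJ complex, had 3.06, 2.72 and 2.73 CPM in Eda-/- libraries, against 4.80, 4.53 and 4.11 CPM in wild-type libraries. The groups did not overlap, and it fell by 0.66 on the log2 scale (SE 0.18, edgeR adjusted p = 0.0271). Its relatives Maml1 (0.13, adjusted p = 0.51) and Maml3 (0.02, adjusted p = 0.941), named after their values were seen, did not pass. Maml2 did not pass in DESeq2 (adjusted p = 0.116) or without mutant 2 or 3 or wild-type 1 or 2 (0.0733 to 0.0911).

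Hdac1, a histone deacetylase found in corepressor complexes, among them those of RBPJ, had 5.94, 4.12 and 3.90 CPM in Eda-/- libraries, against 9.91, 7.53 and 6.87 CPM in wild-type libraries. No mutant library reached a wild-type one, and it fell by 0.80 on the log2 scale (SE 0.19, edgeR adjusted p = 0.0115). Its processed pseudogene Gm10093 on chromosome 17 holds 34.8% of Hdac1's 31-base words and had 5, 8 and 24 counts in Eda-/- libraries, against 0, 1 and 0 in wild-type libraries. With the counts of Gm10093, Gm4864 and Gm12953 added, Hdac1 stood at -0.49 and did not pass (adjusted p = 0.0608). Hdac1 also missed the threshold without mutant 2 or 3 or wild-type 1 (0.0503 to 0.0643).

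**Figure D5:**
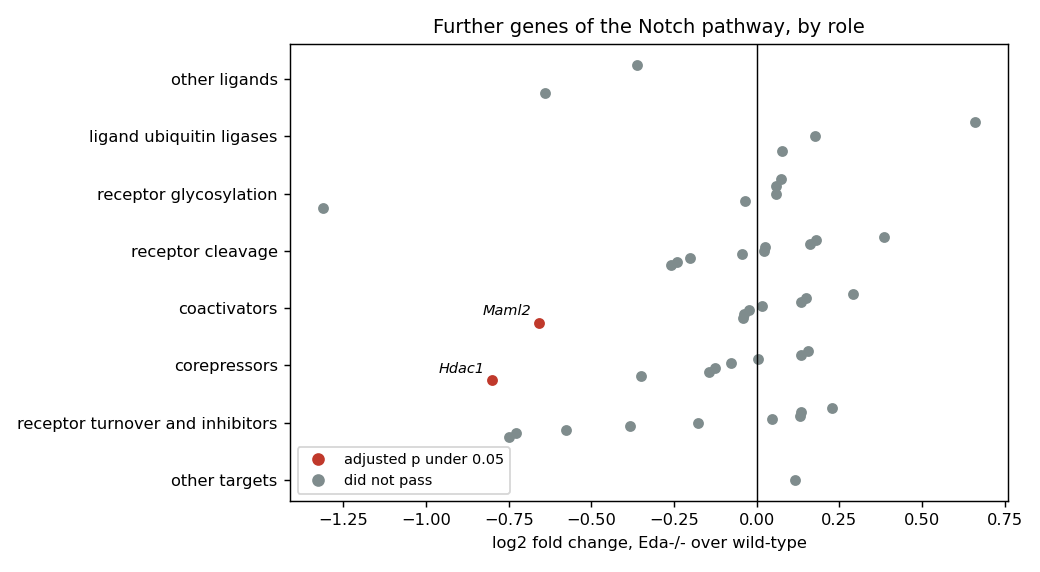
Log2 fold changes, Eda-/- over wild-type, of the 45 tested further genes of the pathway, one point per gene, grouped by role; red marks an adjusted p under 0.05. Maml2 and Hdac1 passed, and the other points lie between -1.31 and 0.66.

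The other roles showed no gene past the test, and the genes named here for them were chosen after their values were seen. Of 9 receptor cleavage genes the values ran from -0.26 for Ncstn (adjusted p = 0.0642) to 0.39 for Psen2 (adjusted p = 0.0875), which encode gamma-secretase subunits. On the opposite strand Copa, with 24162 counts over the 6 libraries, shares 4.91% of Ncstn's exon bases. The strand setting is not given, so such reads cannot be told apart. The protease genes Adam10 and Adam17, which make the first cut, stood at 0.03 and 0.02. Among the receptor glycosylation genes Lfng, the Lunatic fringe sugar transferase, had the lowest value of the list at -1.31 (SE 0.51, adjusted p = 0.125), with 17, 4 and 7 counts in Eda-/- libraries and 19, 29 and 49 in wild-type libraries that overlapped once scaled to CPM, while Pofut1 stood at 0.07. The ligand ubiquitin ligase gene Mib1 had 313, 363 and 329 CPM in Eda-/- libraries and 330, 320 and 302 CPM in wild-type libraries, with a log2 fold change of 0.08 (95% interval -0.09 to 0.25). The endothelial ligand Dll4 (-0.64, adjusted p = 0.332) and the feedback inhibitor Nrarp, itself a Notch target (0.13, adjusted p = 0.851), had wide intervals of -1.50 to 0.22 and -0.62 to 0.88. Antisense Gm38287 shares 79.4% of Nrarp's exon bases and had 11 counts over the 6 libraries. Of 5 further genes of the HES and HEY families Hes6 alone was tested (0.11, adjusted p = 0.686). Hes5, Hes7, Hey2 and Heyl were too low, with 2, 4, 3 and 19 counts over the Eda-/- libraries and 1, 2, 12 and 18 over the wild-type libraries.

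Several cell type markers moved with genotype beside these genes. The summed CPM of 8 macrophage markers was 27.99 to 34.9 in Eda-/- libraries and 58.2 to 110.1 in wild-type libraries. Of the 8, 5 passed lower, where 6.9% of all tested genes did. Wild-type 3 had the highest value for each of the 8, with C1qa at 16.3 CPM against 8.23 and 8.12 in wild-type 1 and 2. For 7 fibroblast markers the sums were 159.8 to 185 in Eda-/- glands and 201 to 262 in wild-type glands (3 lower). For 7 myoepithelial and basal markers they were 41.3 to 51.8 in Eda-/- glands and 62.4 to 69.6 in wild-type glands. Of 6 tested 3 passed lower, Trp63 (-0.83), Mylk (-0.71) and Cnn1 (-0.57). The other tested markers of this list ran from -0.03 (Krt5) to 0.07 (Krt17), with Krt14 at -0.01. Mylk held the largest part of the difference in sums, with means of 19.2 CPM in Eda-/- glands and 31.4 in wild-type glands. Of 11 tested endothelial markers Vwf (-1.01) and Flt1 (-0.51) passed lower. The other 9 did not pass and ran from -0.47 (Esam) to 0.10 (Kdr). Endothelial sums were 49.4 to 55.2 in Eda-/- glands and 61.1 to 75.8 in wild-type glands. Most of that difference lay in Vwf (means of 9.4 and 18.9 CPM) and Flt1 (8.9 and 12.6 CPM, Eda-/- first). Of 7 tested mural markers Myh11 (-0.38) passed lower, with sums of 60.4 to 66.6 in Eda-/- glands and 68.3 to 87.5 in wild-type glands. Most of the mural sum was Myh11, with means of 40.8 CPM in Eda-/- glands and 53.2 in wild-type glands. The other tested mural markers ran from -0.63 (Des) to 0.38 (Kcnj8), and the median of the 7 was -0.005. Among 7 acinar markers 2 rose, Mucl2 and Bhlha15, with sums of 86920 to 135900 in Eda-/- glands and 38190 to 40990 in wild-type glands, almost all of it Mucl2. The other 5 acinar markers did not pass and ran from -0.48 (Slc12a2) to 0.23 (Aqp5), and 3 of the 7 lay below 0. The 5 tested duct markers had log2 fold changes of -0.61 to -0.09, and none passed. Their list summed to 388 to 460 in Eda-/- glands and 436 to 480 in wild-type glands, mostly Krt8 and Krt18. The adipocyte marker Fabp4 rose (1.98, adjusted p = 0.000694 in edgeR), with sums over 5 adipocyte markers of 3.59 to 4.59 in Eda-/- glands and 1.06 to 1.75 in wild-type glands. Most of that difference was Fabp4 itself, with means of 2.89 CPM in Eda-/- glands and 0.73 in wild-type glands. The other 4 were too low to be tested: Adipoq and Plin1 had higher means in Eda-/- glands, Cidec equal means and Lep a lower one. Of 3 tested Schwann cell markers Sox10 fell (-0.73, adjusted p = 0.035 in edgeR), with sums over 5 markers of 13.0 to 14.8 in Eda-/- glands and 17.0 to 17.8 in wild-type glands. The summed CPM of 6 B cell and plasma cell markers, mostly Jchain, was 22.1 to 51.6 in Eda-/- glands and 5.91 to 28.6 in wild-type glands. The summed CPM of 6 T cell markers was at most 0.562 in Eda-/- glands and at most 1.16 in wild-type glands. The part of these cell types in the differences of Rbpj, Notch2, Maml2 and Hdac1 was not tested.

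The protein-coding genes whose profile over the 6 libraries lay nearest to that of each passing member were found by the root-mean-square difference of centred log2 CPM among 11594 genes. Nearest to Rbpj, whose own spread around its mean was 0.326, were Cdca3 (0.0632) and Arhgap10 (0.0642). Nearest to Notch2, with an own spread of 0.133, were Nkapd1 (0.0155) and Inppl1 (0.0157), an inositol phosphatase gene. None of these 4 genes passed the edgeR test itself, with log2 fold changes of -0.64 and -0.54 for Cdca3 and Arhgap10 and -0.25 and -0.22 for Nkapd1 and Inppl1.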

How the data were processed

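The deposited file holds raw read counts, as whole numbers, for each gene and library. Per the labels' protocols, libraries were directional and made after ribosomal RNA removal; per the submitters' processing notes, bcl2fastq, Trimmomatic, STAR, featureCounts and DESeq2 were used with build GRCm38.p5. The sources used here give no versions, strand setting or treatment of reads with several matches. Symbols, coordinates and exon lengths came from GENCODE M21 (GRCm38); 50462 of 50686 identifiers matched. Promoter windows came from RefSeq.

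Testing used edgeR 4.0.16 (R 4.3.3) on the counts: filterByExpr (minimum count 10), TMM scaling, robust quasi-likelihood fit on genotype, two-sided, with Benjamini-Hochberg adjustment over all 13178 tested genes and a threshold of 0.05. Each standard error is the log2 fold change, without its sign, over the square root of F. Alternatives were DESeq2 1.42.0, limma-voom (3.58.1), other scalings and filters, removal of the 20 most abundant genes, a replicate block and each library left out. A GC and length trend (mgcv 1.9.3) and the adding of copies' counts (genes holding at least 2.5% of a gene's 31-base words) were chosen after the data were seen. Scripts were first tested on simulated counts. The design text calls the libraries biological replicates, and no pair agreed within sampling noise (chi-square per degree of freedom 8.61 to 24.9).

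The members and lists were chosen with earlier results of these data known. Genes named are the 10 members, Eda, the pathway genes that passed and the 2 nearest profiles of each passing member; the others are said to be chosen after their values were seen, or are markers.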

Additional observations from a re-analysis of the deposited data

How the results depend on the processing

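Over 18 alternatives Rbpj kept its direction and its side of the threshold in all (log2 -0.84 to -0.44, adjusted p 0.000335 to 0.048), and Notch2 kept its direction in all and its call in 6. The number of the 10 genes that passed lower was 1 in DESeq2, limma-voom, without a filter on low counts, with a fit that was not robust and with the GC and length trend removed, and 1 to 1 with each library left out. It was 7 with library totals, where Rbpj and Notch2 lay 0.57 and 0.24 below the median gene. Over all genes, library totals gave 246 higher and 4365 lower; leaving out each library gave 561 to 677 higher and 599 to 834 lower, the 599 without mutant 3. Of the further pathway genes 18 passed lower with library totals, 4 without the filter and 1 with copies' counts added; 2 passed higher without the filter and 1 with the trend removed. With each library left out, 0 to 3 passed lower (0 without mutant 2 or mutant 3, 1 without wild-type 2) and 0 to 2 higher (1 without mutant 1 or wild-type 3, 2 without mutant 2).

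The sign of Notch1 turned to -0.0013 in limma-voom, -0.26 with library totals, -0.019 with upper quartile scaling and -0.0071 with a minimum count of 30, and ran from -0.0799 to 0.14 with each library left out (below 0 without mutant 1, mutant 2 or wild-type 3). Notch4 stood at -0.017 with library totals, and Hey1 at -0.38 to 0.067 with each library left out. The cause was not tested.

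With the replicate number as a block, 1 of the 10 genes passed lower (Rbpj) and 1 further pathway gene higher. Same-numbered libraries did not deviate together (correlations of -0.0355, 0.0211 and -0.0937 across genes; 1 of 3 mutant libraries correlated best with its own number), and the numbers are no pairing in the labels. Hey1, Dll1 and Notch4 rest on few counts.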
